A study of Mus musculus with 12 samples.

Results

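The 9 genes described here encode gap junction proteins and other proteins used to mark arterial endothelium, leaving aside SOX and Notch genes. They are the connexin genes Gja4, Gja5 and Gja1, the ligand gene Efnb2, the kinase gene Bmx, the secreted guidance and Wnt pathway genes Sema3g and Dkk2, and the matrix genes Mgp and Fbln5. They were chosen by name: each is 1 row of the gene symbol column in all 12 expression tables. They are 9 of 24394 genes listed in every table, and all 9 are among the 11634 genes that passed the filter on low values. The tables come from lung endothelial cells (ECs) isolated by cell sorting from C57BL/6J mice at postnatal day 5, in 3 groups of 4 libraries. The WT group is labelled wild type. The L12-ECKO group carries VE-cadherin-CreERT2, a tamoxifen-inducible Cre recombinase driven by an endothelial promoter, with floxed alleles of both LATS kinase genes (Lats1f/f and Lats2 f/f). The L12YT-ECKO group has these alleles and the same Cre, and in addition Yapf/f and TAZf/f. The labels do not say whether WT mice carried the Cre, how or when recombination was induced, or whether each library stands for its own animal. The p-values therefore measure the spread between libraries, which may be technical.

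LATS1 and LATS2 are kinases of the Hippo pathway that phosphorylate the coactivators YAP and TAZ and so keep them out of the nucleus, where they act with TEAD transcription factors. Connexins assemble into channels that join the cytoplasm of neighbouring cells. In the mouse, the connexins Cx37 (Gja4) and Cx40 (Gja5) are typical of arterial endothelium, and Cx43 (Gja1) is made by many cell types. Ephrin-B2 (Efnb2) marks arterial endothelium and its receptor EphB4 marks veins. The lung endothelium is mostly capillary, and which cells of the sorted pool gave the values of these genes is not known. In such bulk samples, fewer cells of a type and less RNA per cell cannot be told apart.

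The deposited values are on a log2 scale and share 1 distribution in every library, and the depth of each library is not known from them. They come from libraries of short reads near the 3-prime end of each transcript, so levels are compared here between groups and not between genes. The 14 pan-endothelial markers, among them Pecam1 and Cdh5, were above 0 in all 12 libraries. The genes Ctgf and Cyr61, known targets of YAP and TAZ, rose in L12-ECKO by 6.18 and 4.22 on the log2 scale (limma adjusted p = 0.000378 for each), as did the targets Crim1 by 2.01 and Tgfb2 by 1.96 (limma adjusted p = 0.00168 and 0.0327). Wwtr1, which encodes TAZ, fell by 3.001 in L12YT-ECKO against WT (limma adjusted p = 0.000662), and Yap1 differed by -2.08 (limma adjusted p = 0.184). Against WT, Lats1 and Lats2 differed by -2.70 and 0.998 in L12-ECKO (limma adjusted p = 0.562 and 0.26); reads at the 3-prime end may lie outside the deleted exons, so these values do not check the deletion. The tables of 5 libraries have 32 neighbouring rows out of place by 1 row: all of L12-ECKO but replicate 1, and replicates 3 and 4 of L12YT-ECKO. None of the 9 genes lies in the block, and this displacement was used as a mark of a batch. What the batch reflects is not given in the labels. The summed liver markers described below were also highest in these 5 libraries. By Xist and Ddx3y, 5 libraries came from females: WT replicate 4, L12-ECKO replicates 2, 3 and 4, and L12YT-ECKO replicate 3. Within L12-ECKO, batch and sex cannot be told apart.

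Promoter windows of 250 bases before and 50 bases after the RefSeq transcription start were matched for 8 of the 9 genes, on GRCm38.p6; Mgp was not matched and Fbln5 has more than 1 window. Those of Gja4 and Efnb2 are printed because these genes differed most clearly between groups, and that of Gja5 because it encodes the other arterial connexin. The Gja4 window is chr4:127313990-127314289 on the minus strand, the Efnb2 window chr8:8661193-8661492 on the minus strand and the Gja5 window chr3:97032152-97032451 on the plus strand. The Gja5 window lies inside the annotated gene, which begins at 96904693. Capitals mark the motifs found on either strand among 4 that were searched.
Gja4: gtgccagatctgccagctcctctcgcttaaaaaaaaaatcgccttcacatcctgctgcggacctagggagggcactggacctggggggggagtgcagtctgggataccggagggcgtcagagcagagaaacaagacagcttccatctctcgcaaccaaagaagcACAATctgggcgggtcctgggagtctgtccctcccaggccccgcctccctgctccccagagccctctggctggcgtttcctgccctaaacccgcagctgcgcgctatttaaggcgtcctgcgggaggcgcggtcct
Efnb2: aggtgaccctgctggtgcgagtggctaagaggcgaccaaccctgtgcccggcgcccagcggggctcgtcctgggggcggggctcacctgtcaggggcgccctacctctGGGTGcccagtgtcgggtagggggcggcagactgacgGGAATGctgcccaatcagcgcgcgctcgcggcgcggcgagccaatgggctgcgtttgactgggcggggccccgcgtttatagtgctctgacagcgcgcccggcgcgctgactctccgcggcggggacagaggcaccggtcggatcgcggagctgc
Gja5: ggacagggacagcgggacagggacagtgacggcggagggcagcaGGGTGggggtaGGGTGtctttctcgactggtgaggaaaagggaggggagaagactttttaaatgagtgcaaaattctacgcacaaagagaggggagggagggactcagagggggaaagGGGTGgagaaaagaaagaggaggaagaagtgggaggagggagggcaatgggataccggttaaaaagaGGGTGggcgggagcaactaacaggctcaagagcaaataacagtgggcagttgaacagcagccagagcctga

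The motifs searched were ACAAT with its reverse complement ATTGT (the core bound by SOX factors), GGAATG with CATTCC (TEAD), TGGGAA with TTCCCA (RBPJ, the Notch effector) and CACCC with GGGTG (KLF factors). GGAATG and TGGGAA share the letters GGAA and can overlap. The Gja4 window held ACAAT once, at position -86 from the start, and none of the other 3 motifs. ACAAT is found in 31.0% of 32851 promoter windows and in 3 of the 8 matched genes (Gja4, Bmx and Fbln5). The Efnb2 window held GGAATG at -105, which 14.7% of windows hold and no other matched gene did, and GGGTG at -142. The Gja5 window held GGGTG 4 times and none of the other 3 motifs; CACCC or GGGTG is found in 57.5% of windows and in 5 of the 8 genes. TGGGAA was found in 3 of the 8 genes (Bmx, Fbln5 and Sema3g), and in 25.6% of windows. A match says only that these letters are present.

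The connexin gene Gja4 fell 2.59-fold in L12-ECKO, and it was the only 1 of the 9 genes called in any comparison. A gene was called at a limma adjusted p under 0.05 over all 11634 genes tested; 0.481% of them were called between L12-ECKO and WT. Efnb2 lay lower by a similar amount, without overlap between the groups, but was not called; 2 of the 9 genes, and 6.33% of all genes, did not overlap. The other 7 genes overlapped between L12-ECKO and WT, and 6 of these had a lower mean in L12-ECKO; Mgp had a higher one. In L12YT-ECKO, which carries floxed Yap and TAZ alleles as well, Gja4 overlapped WT and none of the 9 was called against WT, where 0.0086% of all genes were called. None was called between L12YT-ECKO and L12-ECKO, where 0.0688% were, and Gja4 and Efnb2 were higher in every L12YT-ECKO library than in any L12-ECKO library, while 4.38% of all genes did not overlap.

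**Figure D1:**
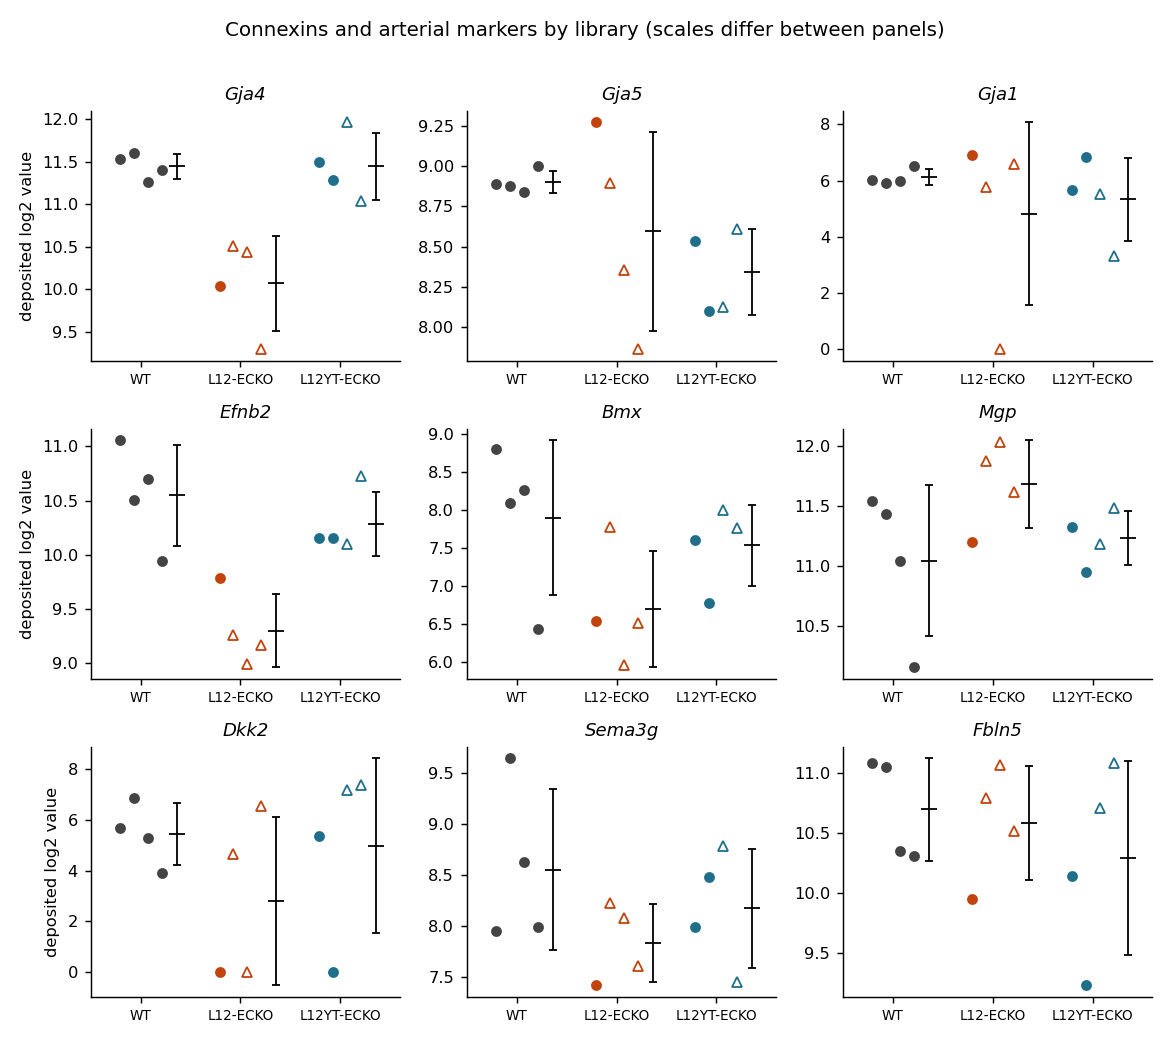
Deposited log2 value (y axis, with its own scale in each panel) of the 9 genes in each library of WT, L12-ECKO and L12YT-ECKO; bars give the mean and SD of 4 libraries, and open triangles mark the 5 libraries with displaced rows. All 4 L12-ECKO libraries lie below all WT and L12YT-ECKO libraries for Gja4, which they do for no other gene but Efnb2.

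Gja4 (ENSMUSG00000050234.7, mm10 chr4:127311421-127314039, minus strand) encodes Cx37. Its values were 11.53, 11.60, 11.26 and 11.40 in WT replicates 1 to 4. L12-ECKO libraries held 10.04, 10.51, 10.44 and 9.30, and those of L12YT-ECKO 11.50, 11.28, 11.96 and 11.04. Every L12-ECKO library was lower than every library of the other groups, with replicate 4 the lowest, and the WT and L12YT-ECKO libraries overlapped. The means were 11.44 ± 0.15, 10.07 ± 0.56 and 11.45 ± 0.39 (SD, n = 4 each). L12-ECKO differed from WT by -1.37 (SE 0.301, 95% interval -2.003 to -0.74, limma adjusted p = 0.0481), lower in 4 of 4 libraries. An exact two-sided permutation test of Gja4 alone gave p = 0.0286, which is the smallest that 4 against 4 libraries can give. Any gene whose groups do not overlap has this p, as 6.33% of all genes did, Efnb2 among them. Adjusted over all genes tested, the permutation p of Gja4 was 0.452.

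The call of Gja4 was close to the threshold, while its size varied less. Leaving out each of the 12 libraries in turn gave differences from -1.52 to -1.12 and limma adjusted p from 0.054 to 0.16, so the call was lost whichever library was left out. With the batch as a covariate the difference was -1.43 (limma adjusted p = 0.242), and with sex as a covariate -1.48 (adjusted p = 0.0973). Within the 7 libraries without displaced rows, where L12-ECKO has 1 library that was assumed to vary like the others, it was -1.40 (limma adjusted p = 0.196). The batch of 5 holds no WT library. Over 23 alternatives on the same scale, the difference ran from -1.52 to -1.12 and the adjusted p from 0.0281 to 0.452, and 2 of them kept the call.

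L12YT-ECKO differed from WT in Gja4 by 0.00 (95% interval -0.63 to 0.63, limma adjusted p = 0.998), so a difference of up to 0.63 either way is within the interval. L12YT-ECKO was higher than L12-ECKO by 1.38 (SE 0.301, 95% interval 0.75 to 2.00), in 4 of 4 libraries and without overlap. The limma adjusted p was 0.129. The difference was 1.35 within the batch of 7 libraries and 1.42 within the batch of 5. These comparisons share libraries, and so their values are set side by side and not counted as separate evidence.

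Gja5 (ENSMUSG00000057123.14, chr3:96904693-97077416, plus strand) encodes Cx40, the other arterial connexin. In the order of the replicates, WT libraries held 8.89, 8.88, 8.84 and 9.001, L12-ECKO libraries 9.27, 8.90, 8.36 and 7.86, and L12YT-ECKO libraries 8.54, 8.10, 8.13 and 8.61. The WT libraries lay close together, the L12-ECKO libraries spread to both sides of them, and all L12YT-ECKO libraries lay below WT. The means were 8.90 ± 0.07, 8.60 ± 0.62 and 8.34 ± 0.27 (SD, n = 4 each). L12-ECKO differed from WT by -0.30 (95% interval -1.16 to 0.55, limma adjusted p = 0.796). L12YT-ECKO differed from WT by -0.56 (95% interval -1.41 to 0.29, limma adjusted p = 0.847), with groups that did not overlap, as did 4.7% of all genes. L12YT-ECKO and L12-ECKO differed by -0.25 (95% interval -1.10 to 0.60, limma adjusted p = 0.976). Within the batch of 7 the L12-ECKO library was higher than WT, by 0.37, and L12YT-ECKO differed from L12-ECKO by -0.95, against -0.0035 within the batch of 5. The annotated Gja5 gene overlaps other genes on the opposite strand, Gpr89 among them, and whether counting used the strand is not given in the sources used here, so its values are less certain.

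The Gja4 value minus the Gja5 value within a library, a measure taken up after the values were seen, describes the gap between the 2 arterial connexin genes. It was 2.64, 2.72, 2.42 and 2.40 in the WT libraries, 0.77, 1.61, 2.09 and 1.43 in those of L12-ECKO, and 2.96, 3.18, 3.83 and 2.43 in those of L12YT-ECKO. Every L12-ECKO library was below every other library, and the WT and L12YT-ECKO libraries overlapped. The value is a difference on the log2 scale; its changes between groups do not depend on the lengths of the 2 transcripts. Since it was chosen after the values were seen, it is given as a description only, and the exact permutation test computed on it is not used as support.

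Gja1 (ENSMUSG00000050953.10, chr10:56377330-56402513, plus strand) encodes Cx43. It was listed at 6.03, 5.91, 5.97 and 6.53 in the WT libraries, 6.91, 5.78, 0 and 6.61 in those of L12-ECKO, and 5.66, 6.85, 5.53 and 3.32 in those of L12YT-ECKO. The groups overlapped, and the low values of L12-ECKO replicate 3 and L12YT-ECKO replicate 4 set the order of the means. The lowest value above 0 of any gene in L12-ECKO replicate 3 was 4.98, so a lower level may be listed at 0 there. With the 0 as deposited, L12-ECKO differed from WT by -1.29 (95% interval -4.39 to 1.81, limma adjusted p = 0.75); without that library the difference was 0.32, and within the batch of 7 it was 0.80. L12YT-ECKO differed from WT by -0.78 (limma adjusted p = 0.948) and from L12-ECKO by 0.51 (limma adjusted p = 0.991). The intervals of Gja1 were too wide to give a direction.

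Of 21 other connexin and pannexin genes and partners, 4 passed the filter and none was called by limma in any comparison. Under an unadjusted limma p of 0.05 were 1 of the 4 in L12-ECKO against WT, 1 in L12YT-ECKO against WT and 0 in L12YT-ECKO against L12-ECKO. Of all genes tested 12.2%, 6.24% and 6.08% were under it in these comparisons. The same shares stand beside such counts of the lists below. Gjc1, which encodes Cx45, had means of 10.55, 10.31 and 10.91 in WT, L12-ECKO and L12YT-ECKO (L12-ECKO against WT -0.23, limma adjusted p = 0.819). Tjp1, which encodes the scaffold ZO-1 that binds connexins, had means of 12.46, 11.66 and 11.79 (-0.80 against WT in L12-ECKO, limma adjusted p = 0.223). Panx1, which encodes a pannexin channel protein, differed by -0.39 (limma adjusted p = 0.9). Of the 17 that were not tested, 8 were listed at 0 in all 12 libraries, and the highest mean among the 17 was 1.97.

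Efnb2 (ENSMUSG00000001300.16, chr8:8617434-8661242, minus strand) encodes the membrane ligand ephrin-B2. The annotated gene overlaps 3 others on the same strand, E230020D15Rik, Gm45074 and Gm45073. Counting by strand would not separate them from Efnb2, and their part in its values was not tested. The 4 WT libraries held 11.06, 10.51, 10.70 and 9.94, L12-ECKO libraries 9.78, 9.26, 8.996 and 9.17, and L12YT-ECKO libraries 10.16, 10.15, 10.10 and 10.73. All L12-ECKO libraries were lower than all others; the closest were L12-ECKO replicate 1 and WT replicate 4. The means were 10.55 ± 0.47, 9.30 ± 0.34 and 10.28 ± 0.30 (SD, n = 4 each). L12-ECKO differed from WT by -1.25 (SE 0.324, 95% interval -1.93 to -0.57), a 2.38-fold lower level that did not pass the threshold (limma adjusted p = 0.106, from 0.0676 to 0.909 over 23 alternatives on the same scale). L12YT-ECKO differed from WT by -0.27 (95% interval -0.94 to 0.41, limma adjusted p = 0.912) and from L12-ECKO by 0.98 (95% interval 0.31 to 1.66, limma adjusted p = 0.574). The difference between L12-ECKO and WT was -0.77 within the batch of 7, -1.15 with the batch covariate and -0.97 with sex as a covariate. That between L12YT-ECKO and L12-ECKO was 0.37 within the batch of 7 and 1.27 within the batch of 5. Among other genes of the family, 11 of 18 ephrin and Eph genes passed the filter and none was called by limma in any comparison, with 1, 1 and 2 of the 11 under an unadjusted p of 0.05. Ephb4, the venous receptor of ephrin-B2, had means of 11.25, 11.67 and 11.38 in WT, L12-ECKO and L12YT-ECKO (0.42 in L12-ECKO against WT, limma adjusted p = 0.546). Efnb1 and Efna1 differed by -0.47 and -0.26, and the receptor gene Epha2 by 2.18 (limma adjusted p = 0.21).

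**Figure D2:**
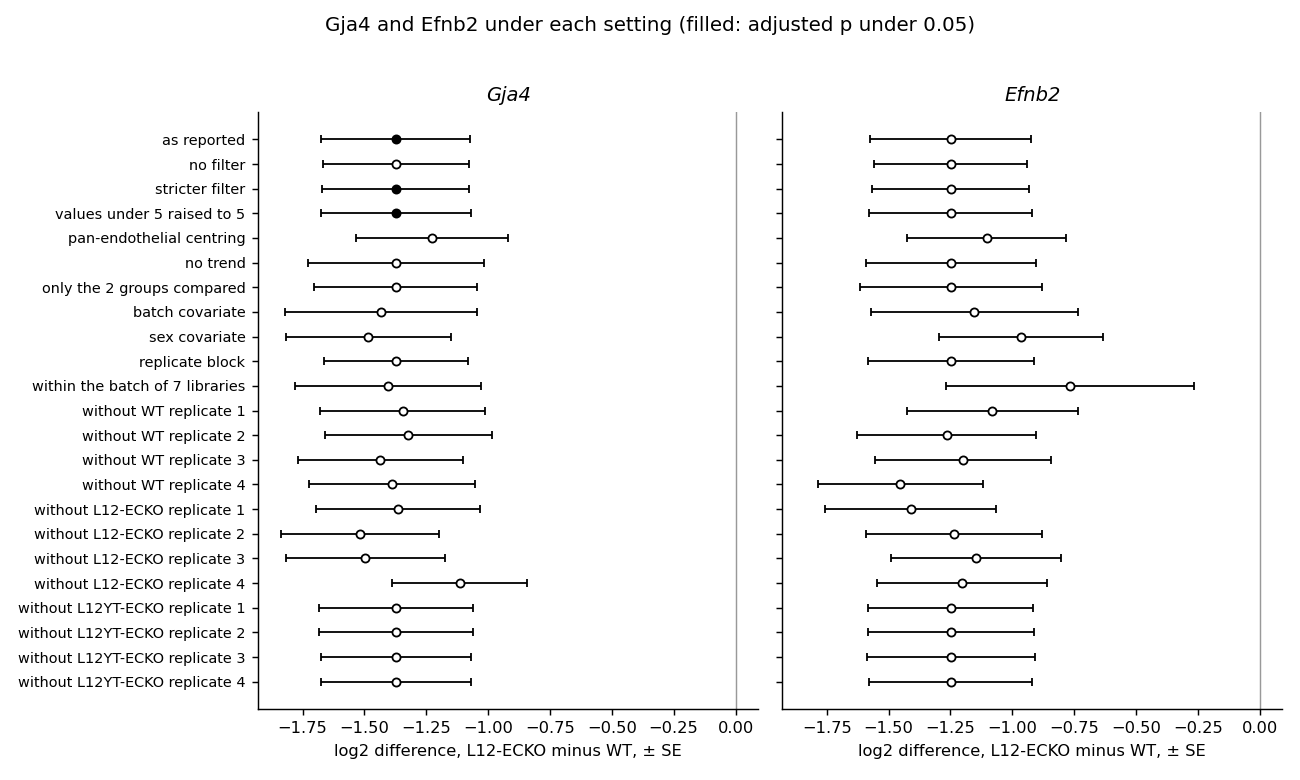
Log2 difference between L12-ECKO and WT (x axis, with its SE) for Gja4 and Efnb2 as reported and under 22 other settings (y axis); filled points have a limma adjusted p under 0.05. All points lie below 0; those of Gja4 run from -1.52 to -1.12, and Efnb2 is nearest to 0 within the batch of 7 libraries, at -0.77.

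Bmx (ENSMUSG00000031377.11, chrX:164192842-164258193, minus strand) encodes a cytoplasmic tyrosine kinase found in arterial endothelium of the mouse. By replicate, WT libraries held 8.79, 8.09, 8.26 and 6.44, L12-ECKO libraries 6.53, 7.77, 5.95 and 6.51, and L12YT-ECKO libraries 7.60, 6.77, 7.997 and 7.76. WT replicate 4 lay among the L12-ECKO libraries and L12-ECKO replicate 2 among the others, so the groups overlapped. L12-ECKO differed from WT by -1.20 (95% interval -2.59 to 0.18, limma adjusted p = 0.47). The difference of L12YT-ECKO was -0.37 from WT (limma adjusted p = 0.947) and 0.84 from L12-ECKO (limma adjusted p = 0.945). The former was -0.61 with the batch covariate and -0.71 within the batch of 7.

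Sema3g (ENSMUSG00000021904.6, chr14:31217860-31230352, plus strand) encodes a secreted semaphorin made by arterial endothelium. Listed by replicate, WT held 7.95, 9.65, 8.63 and 7.99, L12-ECKO libraries 7.41, 8.23, 8.07 and 7.60, and L12YT-ECKO libraries 7.99, 8.48, 8.79 and 7.45. The groups overlapped, with WT replicate 2 the highest library. L12-ECKO differed from WT by -0.72 (95% interval -1.77 to 0.32, limma adjusted p = 0.56), a difference that was -0.36 without WT replicate 2 and -1.14 within the batch of 7. L12YT-ECKO differed from WT by -0.38 (limma adjusted p = 0.922) and from L12-ECKO by 0.34 (limma adjusted p = 0.974), which was 0.82 within the batch of 7 and 0.15 within the batch of 5.

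Dkk2 (ENSMUSG00000028031.6, chr3:132085292-132180304, plus strand) encodes a secreted regulator of Wnt signalling that binds LRP coreceptors. It was listed at 5.68, 6.84, 5.27 and 3.88 in the WT libraries, 0, 4.66, 0 and 6.54 in those of L12-ECKO, and 5.37, 0, 7.16 and 7.37 in those of L12YT-ECKO. It was listed at 0 in 2 L12-ECKO libraries and in 1 L12YT-ECKO library, and the remaining libraries overlapped. Any gene above 0 held at least 0.65 in L12-ECKO replicate 1, 4.98 in L12-ECKO replicate 3 and 1.39 in L12YT-ECKO replicate 2. With the 0 values as deposited, the differences were -2.62 (95% interval -6.58 to 1.34, limma adjusted p = 0.578) for L12-ECKO against WT, -0.44 (adjusted p = 0.981) for L12YT-ECKO against WT and 2.18 (adjusted p = 0.954) for L12YT-ECKO against L12-ECKO. With the batch covariate and within the batch of 7 the first was -5.78 and -5.42 and the second -2.55 and -2.73, whereas raising values under 5 to 5 gave -0.31, 0.53 and 0.84 for the 3 comparisons. The third was 3.53 within the batch of 5. Of 8 other genes of the DKK family and its receptors 4 passed the filter and none was called by limma, with 2, 0 and 0 of the 4 under an unadjusted p of 0.05. The coreceptor genes Lrp5 and Lrp6 differed by 1.30 and 0.90 between L12-ECKO and WT (limma adjusted p = 0.21 and 0.408), Kremen1 by -1.20 and Dkk3 by -1.27.

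The matrix genes Mgp and Fbln5 overlapped between all groups. Mgp (ENSMUSG00000030218.2, chr6:136872435-136875823, minus strand) encodes matrix Gla protein, an inhibitor of calcification and of BMP signalling. The WT values by replicate were 11.54, 11.44, 11.05 and 10.16, L12-ECKO libraries 11.20, 11.87, 12.04 and 11.62, and L12YT-ECKO libraries 11.33, 10.95, 11.19 and 11.48. The 3 L12-ECKO libraries with displaced rows were above every WT library, and L12-ECKO replicate 1 was not. L12-ECKO differed from WT by 0.64 (95% interval -0.003 to 1.28, limma adjusted p = 0.411), and by 0.34 without WT replicate 4. Within the batch of 7 the difference was 0.15. Mgp in L12YT-ECKO differed from WT by 0.19 (limma adjusted p = 0.937) and from L12-ECKO by -0.44 (limma adjusted p = 0.912).

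Fbln5 (ENSMUSG00000021186.9, chr12:101746565-101819055, minus strand) encodes fibulin 5, needed for elastic fibre assembly. Replicates 1 to 4 of WT held 11.08, 11.05, 10.35 and 10.31, L12-ECKO libraries 9.95, 10.80, 11.07 and 10.52, and L12YT-ECKO libraries 10.14, 9.23, 10.71 and 11.08. The groups overlapped over most of their range. The differences were -0.11 (95% interval -0.91 to 0.68) for L12-ECKO against WT, -0.41 for L12YT-ECKO against WT and -0.29 for L12YT-ECKO against L12-ECKO, with limma adjusted p from 0.89 to 0.966. The first was -0.90 with the batch covariate and -0.75 within the batch of 7, and the second -0.93 and -1.01. The third was -0.0284 with the batch covariate and 0.10 within the batch of 5. Of 15 other elastic fibre genes 14 passed the filter and none was called by limma, with 4, 0 and 2 of the 14 under an unadjusted p of 0.05. Elastin (Eln) differed by 0.64 between L12-ECKO and WT (limma adjusted p = 0.332), Mfap2 by -0.92 (limma adjusted p = 0.174), Fbln2 by -0.44 and Ltbp3 by 0.19. Mgp, Fbln5 and Eln are also made by smooth muscle cells and fibroblasts.

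Across the 9 genes, 8 had a lower mean in L12-ECKO than in WT, with a median difference of -1.20 against -0.02 over all genes tested, of which 51.0% were lower. Of these 8, Gja1 and Gja5 changed sign within the batch of 7 libraries, at 0.80 and 0.37. By an unadjusted limma p under 0.05, 2 of the 9 passed, Gja4 and Efnb2, as did 12.2% of all genes, and 7 of the 9 intervals held 0. Between L12YT-ECKO and WT 7 of 9 were lower, with a median of -0.38 against 0.08 over all genes; 0 of the 9 had an unadjusted limma p under 0.05, against 6.24% of all genes, and all 9 intervals held 0. Between L12YT-ECKO and L12-ECKO 6 of 9 were higher, with a median of 0.51 against 0.09 over all genes, and Gja4 and Efnb2 had an unadjusted p under 0.05, as did 6.08% of all genes. Of all genes 45.7% were lower in L12YT-ECKO than in WT and 45.0% lower than in L12-ECKO. Centring each library on the pan-endothelial markers moved the median of all genes by 0.15 between L12-ECKO and WT and by -0.14 between L12YT-ECKO and L12-ECKO. Under it 7 of the 9 were lower in L12-ECKO, since Fbln5 changed sign, and Gja4 differed by -1.23 (limma adjusted p = 0.0848). WT replicate 4 was the lowest WT library for 5 of the 9 genes and L12YT-ECKO replicate 2 the lowest of its group for 5.

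**Figure D3:**
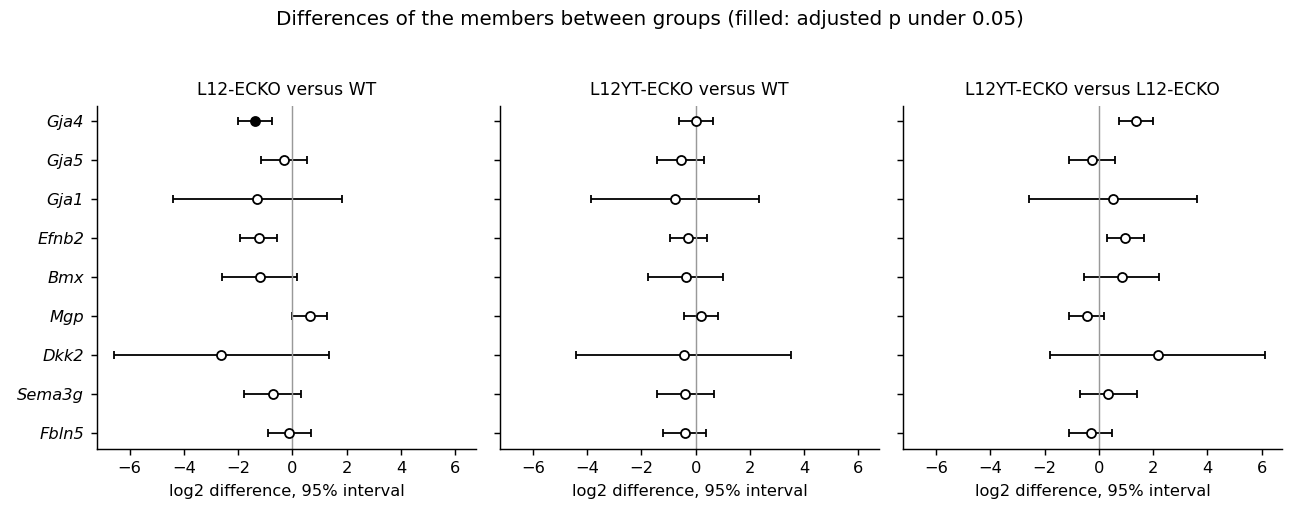
Log2 difference (x axis) with its 95% interval for each of the 9 genes (y axis) in the 3 comparisons; the filled point has a limma adjusted p under 0.05. Gja4 in L12-ECKO against WT, at -1.37, is the filled point, and the intervals of Gja1 and Dkk2 are the widest.

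Genes with the most similar pattern to Gja4, Gja5 and Efnb2 were ranked by Pearson's r of the deposited log2 values over the 12 libraries, among 7461 other tested genes with no value of 0. Libraries share groups, batch and sex, so r is a description. Those nearest to Gja4 were Plekhg5 (r = 0.928), Hyal2 (0.898), Vps72 (0.883), Gnai2 (0.881) and Eid1 (0.874). Those nearest to Efnb2 were Reep3 (r = 0.918), Ythdf1 (0.915), Clic5 (0.902), Vezf1 (0.902) and the SOX gene Sox17 (0.89). Those nearest to Gja5 were Tbrg1 (r = 0.856), Cap1 (0.851), Hip1r (0.843), Zfp729a (0.814) and Cdkn1b (0.81). Among the 9 genes themselves, Gja4 had r = 0.691 with Efnb2, 0.592 with Bmx, 0.577 with Sema3g and 0.143 with Gja5, and Efnb2 had r = 0.754 with Bmx and 0.309 with Gja5. Mgp ran against both, with r = -0.398 to Gja4 and -0.325 to Efnb2.

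Of 25 other arterial endothelial genes 24 were matched and 23 tested, and 2 were called between L12-ECKO and WT. Sox17, an arterial transcription factor gene, fell from a mean of 13.30 ± 0.22 in WT to 12.14 ± 0.34 in L12-ECKO (SD, n = 4 each; difference -1.16, SE 0.224, limma adjusted p = 0.0268), and its mean was 13.31 ± 0.27 in L12YT-ECKO. Edn1, which encodes the vasoconstrictor endothelin 1, rose from 10.71 to 12.34 (difference 1.63, SE 0.322, limma adjusted p = 0.0285) and had a mean of 10.88 in L12YT-ECKO. The call of Sox17 was lost without WT replicate 1, 2 or 3 or L12-ECKO replicate 2 or 3 (differences from -1.29 to -1.05, limma adjusted p up to 0.0838), and with the batch covariate (-1.19, adjusted p = 0.147). That of Edn1 was lost without WT replicate 1, 2 or 4 or L12-ECKO replicate 1, 2 or 4 (1.40 to 1.89, limma adjusted p up to 0.09), and with the batch covariate (1.89, adjusted p = 0.0921). Of the 23 genes 16 were lower in L12-ECKO and 7 higher, with a median of -0.23, and under the pan-endothelial centring 13 were lower and 10 higher. Between L12-ECKO and WT, 6 of the 23 had an unadjusted limma p under 0.05, against 12.2% of all genes. None of the 23 was called by limma in L12YT-ECKO against WT, where 1 had an unadjusted p under 0.05, or against L12-ECKO, where 8 had. Of all genes 6.24% and 6.08% had one.

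**Figure D4:**
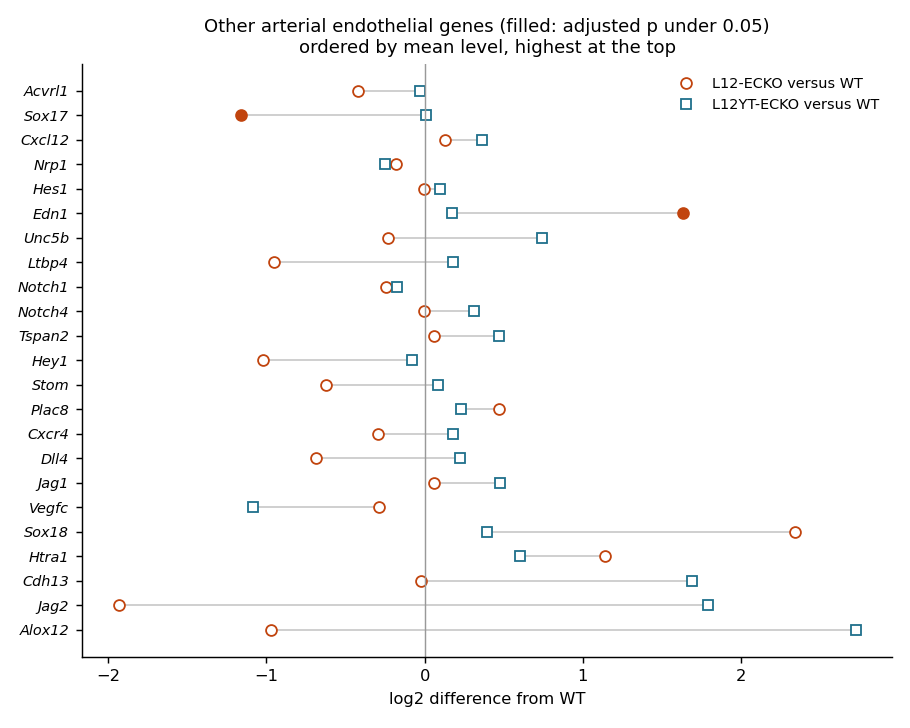
Log2 difference from WT (x axis) of 23 other arterial endothelial genes (y axis, ordered by mean level) in L12-ECKO (circles) and L12YT-ECKO (squares); filled points have a limma adjusted p under 0.05. Sox17 at -1.16 and Edn1 at 1.63 in L12-ECKO are the filled points.

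Markers of other cells were set beside the arterial genes, as the log2 of a list's summed level in each library. That of 12 smooth muscle and pericyte markers was 9.71 to 11.02 in WT, 8.53 to 9.25 in L12-ECKO and 9.13 to 10.35 in L12YT-ECKO. All L12-ECKO libraries were below all WT libraries, as for Gja4 and Efnb2, and L12YT-ECKO overlapped both. Of these markers 9 passed the filter and 7 of the 9 had a lower mean in L12-ECKO. None was called by limma, and 6 had an unadjusted p under 0.05, against 12.2% of all genes. The defining genes Acta2, Myh11 and Pdgfrb had means of 8.35, 7.81 and 7.13 in WT and of 6.85, 5.28 and 4.03 in L12-ECKO. In L12YT-ECKO they were 8.14, 5.24 and 7.05, so Myh11 was as low there as in L12-ECKO. Pdgfrb had an SD of 2.76 in L12-ECKO and was above 0 in 11 of 12 libraries. Tagln and Kcnj8 had higher means in L12-ECKO, with differences of 1.21 and 1.77 (limma adjusted p = 0.714 and 0.737). Actg2 was above 0 in 1 of 12 libraries, a WT library. The part of these cells in the Gja4 and Efnb2 differences was not tested.

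The sum of 10 general capillary markers was also lower in L12-ECKO, at 15.33 to 15.67 against 15.92 to 16.22 in WT. It was 15.65 to 16.01 in L12YT-ECKO. All 10 had a lower mean in L12-ECKO than in WT, and Cd93, Hmcn1 and Sema3c were called. Between L12-ECKO and WT, 5 of the 10 had an unadjusted limma p under 0.05, against 12.2% of all genes. The sum of 12 venous markers overlapped, at 12.69 to 13.49 in WT, 12.55 to 13.10 in L12-ECKO and 12.87 to 13.39 in L12YT-ECKO. The 11 markers of aerocytes, the second capillary type of the lung, overlapped in the sum, at 13.59 to 14.14 in WT, 13.89 to 14.38 in L12-ECKO and 13.61 to 14.24 in L12YT-ECKO. Of these markers 8 of 11 had a lower mean in L12-ECKO than in WT (median difference -0.98). An unadjusted limma p under 0.05 was found for 7 of the 11, against 12.2% of all genes. Among them Clic5 fell by 2.03 (limma adjusted p = 0.00839), while the peptide gene Apln rose by 2.61 (adjusted p = 0.000378) and Cyp4b1 by 1.57 (adjusted p = 0.0238). Apln fell by 2.01 in L12YT-ECKO against L12-ECKO (limma adjusted p = 0.00522). The sum of 14 pan-endothelial markers was 18.36 to 18.39 in WT, 18.28 to 18.35 in L12-ECKO and 18.34 to 18.47 in L12YT-ECKO. All L12-ECKO libraries were below all WT libraries in this sum too, but narrowly, at most 18.35 against at least 18.357. Egfl7, the marker with the highest value, was 17.72 in every group with an SD of 0, which limits how far the sum can move. The median difference of the 14 markers between L12-ECKO and WT was -0.10, against -1.37 for Gja4 and -1.25 for Efnb2. Single markers ranged widely, with 9 of the 14 lower in L12-ECKO and 4 higher. Tek differed by -1.11 (limma adjusted p = 0.078), Ramp2 by -0.80, Cldn5 by -0.67 and Robo4 by 0.91. None of the 14 was called by limma against WT, with 4 in L12-ECKO and 1 in L12YT-ECKO under an unadjusted p of 0.05, and Cldn5, a tight junction gene, was higher by 1.14 in L12YT-ECKO than in L12-ECKO (limma adjusted p = 0.0401). The sum of 12 fibroblast markers was 10.17 to 10.95 in WT, 9.03 to 10.28 in L12-ECKO and 9.19 to 10.53 in L12YT-ECKO. Of 15 liver markers 7 were at 0 in all WT libraries, and their sum was highest in libraries with displaced rows, at 8.05 to 9.87 in WT, 9.12 to 12.39 in L12-ECKO and 8.60 to 11.16 in L12YT-ECKO. The sums of 12 epithelial, 12 immune, 10 red cell and platelet and 5 mesothelial markers overlapped between all 3 groups. The part of any of these in the values of the 9 genes was not tested.

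**Figure D5:**
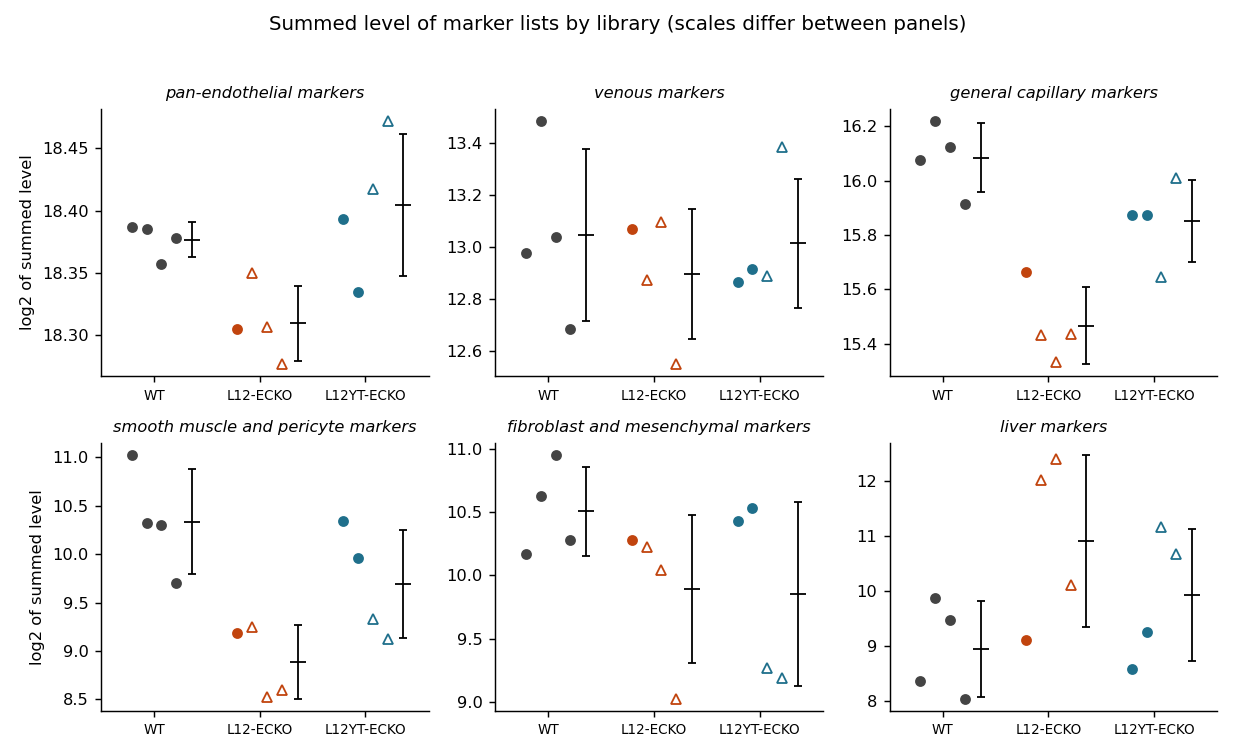
Log2 of the summed level (y axis, with its own scale in each panel) of 6 marker lists in each library; bars give the mean and SD of 4 libraries, and open triangles mark libraries with displaced rows. Smooth muscle and general capillary markers are lower in all 4 L12-ECKO libraries than in any WT library, and venous markers overlap between the groups.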

How the data were processed

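RNA of sorted lung endothelial cells was extracted with Trizol and made into Lexogen QuantSeq libraries sequenced on a NextSeq, per the labels' protocols and design text. The submitters' processing notes name Bowtie2, edgeR and mm10, without roles or versions. The authors deposited 1 table per library, and the values are log2 values. The number of genes above 0 differs between libraries, so the lower ranks are not shared. Since the first 5000 ranks differ by at most 0.168 between libraries, the values appear quantile-normalized over these, a step inferred from the values. Depth cannot be recovered, and differences between libraries in total RNA are removed by such a step. Of 24421 rows, 27 under names turned into dates in 2 libraries and 34 displaced rows were left out. Genes with a CPM of at least 1, from values raised from the log2 scale, in at least 4 libraries were kept (11634). limma 3.58.1 (R 4.3.3, trend and robust) was fitted on the deposited values to all 12 libraries with a mean per group (9 residual degrees of freedom); p-values were adjusted by Benjamini-Hochberg over all genes tested, and called under 0.05. The fit was tested on simulated data. The members and lists were chosen with earlier results of these data known. The genes named are all 9 members; from other lists those called, or else at most 4 with the highest mean; 5 genes nearest in pattern; and Ctgf and Cyr61. Named outside this rule are the floxed genes and single markers of endothelium and of other cells. Gene positions are GENCODE vM21 and promoters RefSeq, both on GRCm38, the build named mm10. Depp1 was not matched. Other settings tried were other filters, scales and variance priors, batch, sex and replicate number as terms, single batches, and leaving out each library.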

Additional observations from a re-analysis of the deposited data

Results flagged for a closer look

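In groups of 4 libraries, a library was singled out where its gap to the nearest other exceeded Dixon's 95% critical share of the group's range. This was done for 78 groups of values, of which chance would single out about 1 in 20, and 7 were found. Gja1 was listed at 0 in L12-ECKO replicate 3, against 5.78 to 6.91 in the other L12-ECKO libraries. The lowest value above 0 of any gene in L12-ECKO replicate 3 was 4.98. Efnb2 stood at 10.73 in L12YT-ECKO replicate 4, against 10.10 to 10.16 in the others of that group, which lie closer together than the Efnb2 values of the other groups. Wwtr1, which encodes TAZ, was 10.11 in L12-ECKO replicate 4, against 11.49 to 11.57. Yap1 was 6.69 in L12YT-ECKO replicate 3, against 7.96 to 8.20. The summed immune markers were 16.44 in L12-ECKO replicate 1, against 7.38 to 8.59. No other L12-ECKO library lacks displaced rows, so comparisons with L12-ECKO within the batch of 7 rest on this library. The summed mesothelial markers were 6.07 in WT replicate 4 and 0 in the other WT libraries. The summed venous markers were 13.39 in L12YT-ECKO replicate 4, against 12.87 to 12.92.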

How the results depend on the processing

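Of 651 alternative values for single genes of the 9, 602 kept their direction and their side of the threshold, 22 lost the call (all of them Gja4 in L12-ECKO against WT) and 27 changed sign, none of which was called. The 1 gene of the 9 called in L12-ECKO against WT became 0 with a second logarithm, no filter, pan-endothelial centring, no trend in the prior variance, only the 2 groups, the batch or sex covariate, the batch of 7 alone, or with any 1 library left out (0 to 0). No pairing of the libraries by replicate number was found: 12 same-numbered pairs had r of -0.047 to 0.058 between deviations from group means. Such values cannot exclude a weak pairing, and the labels do not mention one. With the replicate block 0 of the 9 genes were called and Gja4 had a limma adjusted p of 0.0529. Genes called in L12-ECKO against WT, 56 as reported, became 27 with a second logarithm, 21 with no filter, 7 with no trend, 30 with only the 2 groups, 15 with the batch covariate and 15 with the sex covariate, and 15 to 80 with 1 library left out: 17, 15 and 27 without WT replicates 1, 2 and 4, 24, 22, 36 and 32 without L12-ECKO replicates 1 to 4, and 33 and 34 without L12YT-ECKO replicates 2 and 3. In L12YT-ECKO against WT the 1 call became 0 with no trend and 1 to 3 with 1 library left out. In L12YT-ECKO against L12-ECKO the 8 calls became 4 with a second logarithm, 3 with no trend, 5 with only the 2 groups, 5 with the sex covariate, 14 within the batch of 7, 0 within the batch of 5 and 4 to 9 with 1 library left out. The counts within batches were chosen after seeing the data. The cause of these changes was not tested.

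Changes of sign were these. Gja4 in L12YT-ECKO against WT became -0.0002 with a second logarithm, -0.0384 with the batch covariate, -0.0535 within the batch of 7 and -0.17 to 0.14 with 1 library left out. Gja5 in L12-ECKO against WT became 0.37 within the batch of 7. Gja1 in L12-ECKO against WT became 0.39 with the batch covariate, 0.80 within the batch of 7 and -1.99 to 0.32 with 1 library left out; against WT in L12YT-ECKO it became 0.34 and 0.14 under the first 2 of these. Gja1 in L12YT-ECKO against L12-ECKO became -0.32 with values under 5 raised to 5, -0.0462 with the batch covariate, -0.66 within the batch of 7 and -1.09 to 1.21 with 1 library left out. With 1 library left out, L12YT-ECKO against WT ran from -0.10 to 0.36 for Mgp and from -1.24 to 1.21 for Dkk2, which was 0.53 with values under 5 raised to 5. Fbln5 in L12-ECKO against WT became 0.0305 with pan-endothelial centring and -0.28 to 0.10 with 1 library left out; in L12YT-ECKO against L12-ECKO it became 0.10 within the batch of 5 and -0.56 to 0.062 with 1 library left out. Gja1 and Dkk2 have no value under the filter that asks for values above 0 in all libraries. Depth is unknown, so a gene listed at 0 may have been missed.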
